A study of Mus musculus with 6 samples.

Results

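Upstream antisense starts are places just in front of a gene where capped RNA begins on the opposite strand and runs away from the gene. They were examined here at 6876 protein-coding promoters, out of 21938 annotated protein-coding gene 5′ ends. A promoter entered the set if the GENCODE annotation placed no opposite-strand gene start or gene body within 2 kb upstream, which 16052 ends met, and if the gene strand carried at least 500 tags within 500 bp of the 5′ end, summed over all 6 libraries, which 6876 of those met. The antisense window was the opposite strand from 0 to 1000 bp upstream of the annotated 5′ end. The promoters were thus chosen by their pooled sense tags, and the sense level is a property of the selection. The antisense tags, their position and their change between cell types did not enter the rule.

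The tags come from cap analysis of gene expression (CAGE), in which the capped 5′ end of an RNA is captured and a short tag from that end is sequenced, so that each tag marks the strand and position where an RNA starts. RNA was taken from nuclei of R08, a line of mouse embryonic stem cells (mESCs) grown without feeder cells in medium with serum and leukemia inhibitory factor, and of Oli-neu, an immortalized mouse oligodendrocyte precursor line (mOPCs) grown in proliferation medium with N2 supplement, thyroid hormones, bFGF and PDGF-BB. Each cell type has 3 libraries, numbered 1 to 3, and each cell type is a single line. No source used here says whether the 3 libraries of a line came from separate cultures, so the errors below measure the spread between libraries, which may be technical. Libraries held 16657021 to 40928704 tags. All mESC libraries carry one library label in the deposited files and all mOPC libraries another. No source used here says what the label stands for, and anything that goes with it cannot be told apart from cell type.

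Most mammalian promoters for RNA polymerase II are flanked by a pair of divergent transcription complexes that share a region free of nucleosomes. The complex facing the gene makes the mRNA. The complex facing away makes a short, capped, unstable transcript known as an upstream antisense RNA or PROMPT. Such transcripts usually end early, at poly(A) signals that U1 snRNP does not mask or through the Integrator complex, and are degraded in the nucleus by the RNA exosome. Nuclear RNA is therefore the fraction in which they are most often looked for.

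The antisense starts are shown at 10 promoters that the results below turn on. Selenoi, Gtf3c2 and Qk are among the 6 members with most antisense tags, Ggnbp2 and Tdg among the 6 with the highest ratio, and Bzw1, Gm1673, Zfp42, Bmp4 and Cep126 among those whose antisense tags differed most between cell types. Each line gives the antisense strand, 5′ to 3′, from the base in front of the GENCODE 5′ end toward upstream DNA, or, at Zfp42 and Cep126, from near the RefSeq start, which lies upstream of the GENCODE 5′ end (mm10, from RefSeq promoter windows of GRCm38.p6). The capitals mark the deposited position with most antisense tags and the base after it.
Selenoi (chr5:30232371-30232580, minus strand): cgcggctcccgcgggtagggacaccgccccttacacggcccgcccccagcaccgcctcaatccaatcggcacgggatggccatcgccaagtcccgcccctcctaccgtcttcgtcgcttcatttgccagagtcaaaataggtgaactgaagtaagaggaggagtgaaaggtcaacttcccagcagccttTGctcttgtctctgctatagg
Gtf3c2 (chr5:31180145-31180224, plus strand): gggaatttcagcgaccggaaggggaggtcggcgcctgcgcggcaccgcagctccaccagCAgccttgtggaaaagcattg
Qk (chr17:10319855-10319946, plus strand): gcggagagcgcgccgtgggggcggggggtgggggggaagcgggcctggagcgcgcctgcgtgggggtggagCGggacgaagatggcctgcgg
Ggnbp2 (chr11:84870818-84870920, plus strand): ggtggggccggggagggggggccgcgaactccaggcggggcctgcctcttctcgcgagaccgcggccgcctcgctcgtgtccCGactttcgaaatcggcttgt
Tdg (chr10:82629735-82629827, minus strand): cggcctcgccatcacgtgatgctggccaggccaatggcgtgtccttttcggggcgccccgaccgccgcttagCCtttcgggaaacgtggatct
Bzw1 (chr1:58392780-58392897, minus strand): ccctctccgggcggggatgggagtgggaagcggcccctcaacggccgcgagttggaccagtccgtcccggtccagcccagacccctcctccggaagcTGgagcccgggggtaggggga
Gm1673 (chr5:33983391-33983432, minus strand): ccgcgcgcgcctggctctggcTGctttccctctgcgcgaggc
Zfp42 (chr8:43307010-43307252, plus strand): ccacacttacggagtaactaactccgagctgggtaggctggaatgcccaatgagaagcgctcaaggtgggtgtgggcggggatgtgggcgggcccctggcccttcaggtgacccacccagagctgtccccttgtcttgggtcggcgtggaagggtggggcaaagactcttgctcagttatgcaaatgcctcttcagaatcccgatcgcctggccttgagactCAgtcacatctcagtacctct
Bmp4 (chr14:46390670-46390807, plus strand): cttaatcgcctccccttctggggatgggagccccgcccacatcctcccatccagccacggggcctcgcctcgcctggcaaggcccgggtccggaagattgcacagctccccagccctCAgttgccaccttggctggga
Cep126 (chr9:8134447-8134605, plus strand): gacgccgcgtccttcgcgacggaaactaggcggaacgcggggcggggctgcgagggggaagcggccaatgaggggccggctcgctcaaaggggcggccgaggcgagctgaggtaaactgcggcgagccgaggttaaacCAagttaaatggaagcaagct

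At these 10 starts, 9 have a pyrimidine in the deposited position followed by a purine, and Tdg has CC. The same held across the set. RefSeq windows with a start within 50 bp of the GENCODE 5′ end were found for 4002 of the 6876 members, and the dominant antisense position of 2657 members with at least 20 antisense tags fell in them. A pyrimidine followed by a purine, the usual letters at positions -1 and +1 of a polymerase II start, stood at the deposited position and the base after it in 2314 of 2657 antisense starts (87.1%) and in 2121 of 2344 sense starts (90.5%). All dinucleotides of the same windows were of this kind in 21.7%. Read with the deposited position itself as +1, the share was 1.17% for antisense and 0.683% for sense starts, so the deposited positions lie 1 base in front of the letters of an initiator on both strands. Distances below keep the deposited positions.

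The initiator letters of the 2 strands were alike, with small shifts in their order. CA was the most frequent pair on both, at 36.6% of antisense and 37.6% of sense starts. CG was less frequent at antisense starts (16.6% against 25.6%), and TA was more frequent (14.8% against 9.68%). The word TATAAA stood 20 to 36 bases in front of the deposited position at 10 of 2657 antisense starts (0.376%) and at 38 of 2344 sense starts (1.62%).

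**Figure D1:**
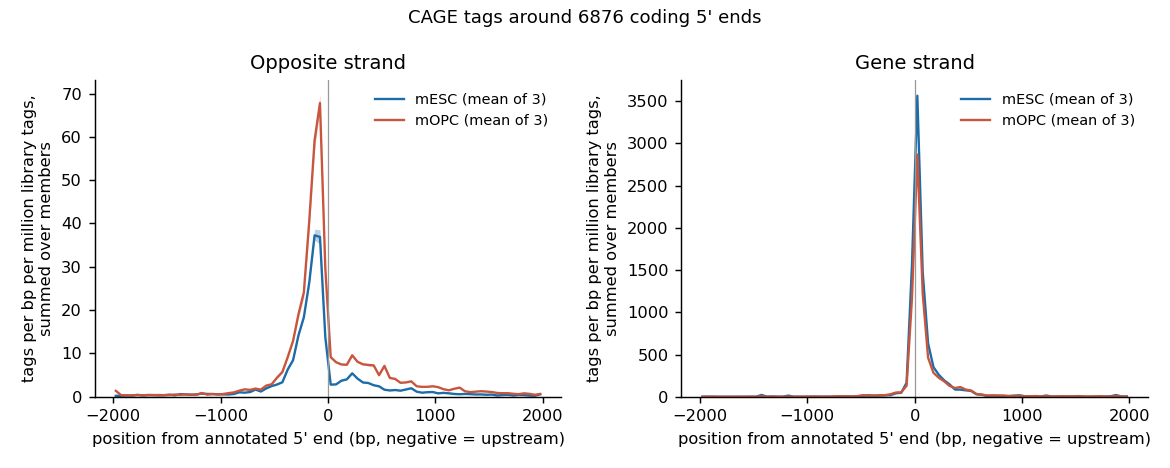
CAGE tags per bp, in CPM (tags scaled to the library total), summed over 6876 members in bins of 50 bp, against position from the annotated 5′ end (bp, negative is upstream). Lines are means of 3 libraries and shading is their range. Opposite-strand tags peak between 50 and 150 bp upstream in both cell types, higher in mOPCs, and gene-strand tags peak at the 5′ end.

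Antisense tags were found at nearly every member, but far below the sense tags. In all, 6699 of 6876 members (97.4%) had at least 1 antisense tag in the pooled libraries, 5250 had at least 20 and 3239 at least 100. The median member carried 87 antisense tags and 5613 sense tags, a ratio of 1.58 antisense tags per 100 sense tags (quartiles 0.428 and 4.60). Below 1 per 100 lay 2751 members (40.0%), above 10 per 100 lay 852 (12.4%), and 22 had more antisense than sense tags. The 177 members with 0 antisense tags had 527 to 56209 sense tags. For the deepest of them, the limit that a count of 0 allows (3 tags) is 0.00534 per 100. Intervals and limits of this kind cover counting error alone, since PCR copies of a tag were not removed by molecular identifiers.

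Tags were spread unevenly over the promoters. The 10 members with most antisense tags held 5.92% of all antisense tags, and the 100 with most held 22.5%. The median ratio was lower where sense tags were more frequent. Members were sorted here by the same sense tags that divide the ratio. Such sorting can by itself lower the ratio where sense tags are many, and its part was not tested. The values below therefore describe the set and do not show how antisense output depends on sense output. In the tenth of members with fewest sense tags (500 to 1101) the median ratio was 2.25 per 100, and in the tenth with most (20952 to 535093) it was 0.634 per 100. Across the 6876 members, log10 antisense and log10 sense tags had a Pearson r of 0.374 and a Spearman rho of 0.364. This is a description across genes, which share the libraries and are not independent replicates. At the entry threshold, Stk26, Tmem151b and Apod lay just inside with 500, 501 and 502 sense tags and 1, 45 and 6 antisense tags. Brinp1, Col7a1 and Iqgap1 lay just outside, each 1 sense tag below the minimum, with 4, 1 and 14 antisense tags.

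The ratio went with the CpG content of the 250 bases in front of the gene. Promoters with an observed to expected CpG ratio under 0.35 had a median of 0.60 antisense tags per 100 sense tags (356 members). The median was 1.2 between 0.35 and 0.6 (801 members), 1.72 between 0.6 and 0.8 (1348 members) and 2.59 above 0.8 (1497 members). At least 20 antisense tags were found at 48.6% of the first class and 91.0% of the last. Words of known promoter elements, searched on both strands, differed in how they went with the ratio. GGGCGG, the core of an Sp1 box, was in 56.8% of members below 1 per 100, 67.9% of those from 1 to 10 and 70.2% of those above 10, against 32.7% of all 32851 RefSeq windows. TATAAA went the other way, with 8.46%, 5.04% and 3.56%, against 12.4% of all windows. CCAAT differed little, at 38.6%, 39.1% and 41.1%, against 33.8%. The median GC content rose over the same classes, from 56.8% to 60.8% and 63.6%, against 52.4% of all windows. The part of base composition in these shares was not tested. A word in a window is a match of letters and not a bound site.

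The antisense start mostly lay within 250 bp of the sense start. Among 5250 members with at least 20 antisense tags, the dominant antisense position was a median of 125 bp upstream of the annotated 5′ end (quartiles 79 and 205 bp). The gap between the dominant sense and the dominant antisense position had a median of 166 bp (quartiles 110 and 263.8 bp). It was between 50 and 250 bp in 3657 members (69.7%), over 500 bp in 323 (6.15%) and negative, with the antisense start inside the sense start, in 26 (0.495%). Antisense positions downstream of the annotated 5′ end were not searched. The window thus limits how often a negative gap can be found, and the share says nothing of antisense starts inside the gene. Of the 10 starts shown above, that of Gm1673 lay nearest to the annotated end, at 22 bp, and that of Cep126 farthest, at 291 bp, which counts from the GENCODE 5′ end and so reaches beyond the printed line.

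**Figure D2:**
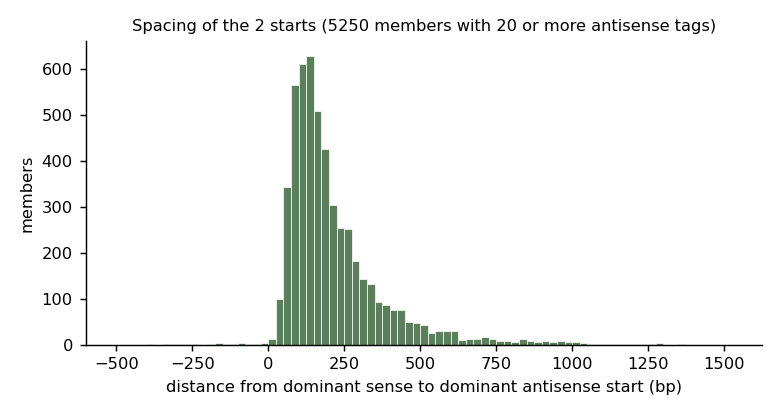
Number of members against the distance between the dominant sense and the dominant antisense position (bp, bins of 25 bp), for 5250 members with 20 or more antisense tags. The distribution has a single mode, with a median of 166 bp and 6.15% of members over 500 bp.

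Antisense tags were more spread than sense tags. In 3239 members with at least 100 antisense tags, the span that holds the tags from the 10th to the 90th percentile had a median of 75 bp on the antisense strand and 56 bp on the sense strand, where the sense span covers the 500 bp on either side of the 5′ end. The antisense span was wider in 2021 of them (62.4%). The antisense strand mostly held far fewer tags, and the part of depth and of scattered tags in the spans was not tested. A single position held over 50% of the tags in 68 members on the antisense and 180 on the sense strand. Zfp42 was such a promoter, with 72.7% of its antisense tags at the CA shown above, whereas the dominant position of Olig2 held 8.52%.

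The same antisense position led in different libraries of a cell type less often than the same sense position did. Over 994 members with at least 30 tags on each strand in each library, the dominant antisense positions of 2 libraries of one cell type lay within 10 bp in 72.8% to 81.6%, and those of the sense strand in 90.7% to 92.2%. Between cell types, 61.2% to 63.1% of antisense and 72.5% to 73.5% of sense positions lay within 10 bp. Fewer tags stand behind the antisense positions, and the part of depth in this was not tested.

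The entry rule leaves out promoters with an opposite-strand GENCODE gene within 2 kb upstream, so RefSeq was searched as a further annotation. Only RefSeq starts were searched, and most members had none in the antisense window. RefSeq starts on the opposite strand, which the GENCODE rule did not see, fell in the antisense window of 212 members (3.08%). These had a median ratio of 5.46 per 100, against 1.54 per 100 for the other 6664, and held 10.2% of all antisense tags. Qk, Ggnbp2, Bzw1, Gm1673 and Klf4, all described below, are among them.

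The main comparison was between cell types. It asked whether the antisense output of a promoter, for a given sense output, was the same in mESCs and mOPCs. Pooled over the 6876 members, the mESC libraries had 2.00, 2.02 and 2.13 antisense tags per 100 sense tags and the mOPC libraries 4.07, 4.09 and 3.89. The means were 2.05 ± 0.0679 and 4.02 ± 0.110 (SD, n = 3 libraries each), a 1.96-fold difference. Every mOPC library lay above every mESC library. The exact permutation test (two-sided) gave p = 0.1, the smallest that 3 libraries against 3 allow.

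The median member differed far less than the pool. Over 5784 members with at least 100 sense tags in each cell type, the median was 1.56, 1.49 and 1.55 per 100 in mESCs and 1.86, 1.86 and 1.60 per 100 in mOPCs. The means of 1.54 ± 0.0413 and 1.77 ± 0.148 (SD, n = 3 each) differed 1.15-fold, with no overlap of the libraries (exact permutation test, p = 0.1, the smallest possible). The lowest mOPC library was close to the highest mESC library. Without the 10 members with most antisense tags, the pooled ratio was 1.97 ± 0.0662 against 3.78 ± 0.110 per 100. Among the 6023 members with a pooled ratio below 10 per 100 it was 1.22 ± 0.0348 against 2.03 ± 0.112.

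Other opposite-strand tags moved with the cell type too. From 1 to 500 bp downstream of the 5′ end, inside the gene, opposite-strand tags came to 0.394 ± 0.0180 per 100 sense tags in mESCs and 1.07 ± 0.0187 in mOPCs (2.71-fold). Between 1 and 2 kb upstream they came to 0.101 ± 0.00229 and 0.141 ± 0.00211 (1.39-fold; SD, n = 3 each). Sense windows of the members took 43.7% to 44.1% of all tags in mESC libraries and 35.9% to 36.1% in mOPC libraries. The part of any of these in the 1.96-fold difference was not tested.

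**Figure D3:**
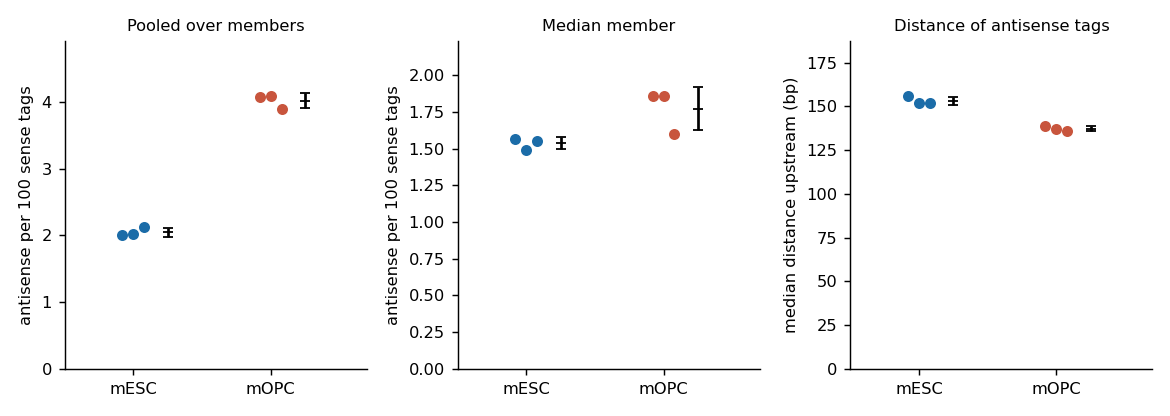
Antisense tags per 100 sense tags pooled over members (left) and for the median member (centre), and the median distance of antisense tags upstream of the annotated 5′ end in bp (right). Points are single libraries, and bars are the mean and SD of 3. The pooled ratio is 2.05 in mESCs and 4.02 in mOPCs, while the median member is at 1.54 and 1.77 and the distance at 153.3 and 137.3 bp.

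Antisense tags also lay nearer to the gene in mOPCs. The tag-weighted median distance was 156, 152 and 152 bp in mESCs and 139, 137 and 136 bp in mOPCs. The difference of -16.0 bp exceeded the spread between libraries (SD 2.31 and 1.53 bp, exact permutation test, p = 0.1, the smallest possible). Tags within 50 bp of the 5′ end made up 7.81% ± 0.203 in mESCs and 10.6% ± 0.188 in mOPCs. The peak also differed in place, with 50 to 100 bp upstream the densest stretch in mOPCs (67.8 ± 1.75 CPM per bp, where CPM is tags scaled to the library total), and 100 to 150 bp (37.3 ± 1.33) level within error with 50 to 100 bp (36.9 ± 1.63) in mESCs.

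Promoter by promoter, antisense tags rose at 1921 members and fell at 1191 in mOPCs, out of 4079 that passed the count filter of edgeR's quasi-likelihood test (Benjamini-Hochberg adjusted p under 0.05). The other 2797 members had too few antisense tags to be tested. A member could pass the filter through the cell type in which it is high. Over all 4309 antisense windows tested, members or not, 46.5% were called higher and 30.6% lower, so the members' 47.1% and 29.2% are close to the background. The median change was 0.39 on the log2 scale (mOPC over mESC), against 0.36 over all antisense windows tested. Scaled by the antisense windows alone, the counts were 1570 higher and 1541 lower and the median 0.00. That scaling sets the typical antisense change near 0, so it cannot show whether antisense tags shifted as a whole.

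Antisense and sense changes of a promoter had the same sign in 66.5% of the 4079 members. Their log2 changes had a Pearson r of 0.773 and a Spearman rho of 0.556, as a description across genes that share libraries and scaling. Over all 13058 sense windows tested, members or not, 40.3% were called higher in mOPCs and 50.6% lower. Of the members whose antisense tags rose, 1188 had sense tags that rose, 573 had sense tags that fell and 160 had no call. Of those whose antisense tags fell, 864 had sense tags that fell, 230 had sense tags that rose and 97 had no call.

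The ratio itself was tested by a model with both strands of every library, in which the interaction of strand and cell type is the change of the ratio. It was called higher in mOPCs at 1920 and lower at 1299 of 5145 members tested (37.3% and 25.2%). Over all 5207 promoters tested, 37.2% were called higher and 25.3% lower. When antisense columns were given their own scaling, the counts were 1583 higher and 1649 lower. That scaling takes out a shift shared by most promoters, so it cannot decide whether higher ratios exceed lower ones. The median change was 0.29 on the log2 scale, or 0.27 with the 95 members at 0 tags in 1 cell type set to their bound. It was -0.04 under the antisense scaling. The ratio is made from the sense and antisense tags. Opposite changes of the strands in members grouped by its call thus follow in part from the grouping, and they are given as a description. Where the ratio rose, the median sense change was -0.80 and the median antisense change 1.09. Sense tags fell at 1311 of these 1920, against 50.6% of all sense windows tested. Where the ratio fell, the median changes were 0.87 for sense and -0.69 for antisense tags. Sense tags rose at 899 of these 1299, against 40.3% of all sense windows tested.

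**Figure D4:**
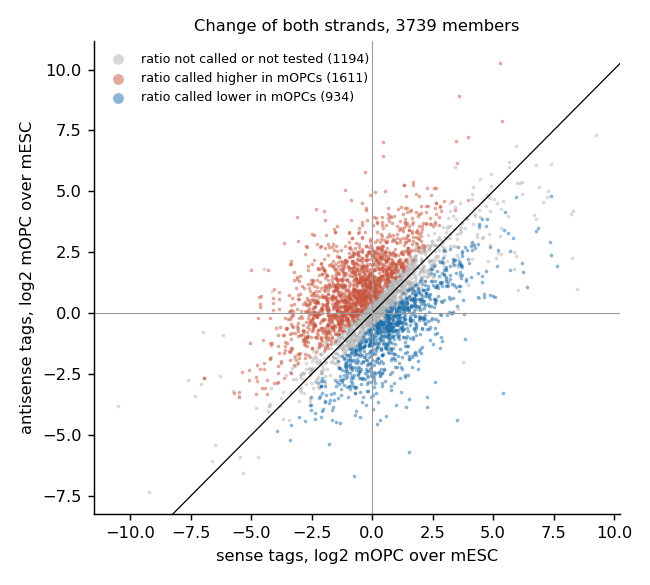
Log2 change (mOPC over mESC) of antisense tags against that of sense tags for 3739 members with at least 4 tags on each strand in each cell type. Each point is a promoter, the diagonal is an equal change of both strands, and colors give the call of the ratio (1611 higher, 934 lower). Points with a higher ratio lie above the diagonal and those with a lower ratio below it, since the ratio is made from the same tags as both axes.

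The members with most antisense tags were led by Selenoi, which encodes an ethanolamine phosphotransferase of phospholipid synthesis. Its antisense start 190 bp upstream had 12.4, 14.8 and 11 antisense CPM in mESCs and 216.1, 222.7 and 230.4 in mOPCs. Its ratio was 53.7, 55.7 and 40.6 per 100 sense tags in mESCs and 233.9, 206.5 and 214.4 in mOPCs, a log2 change of 2.13 ± 0.17 (SE, adjusted p = 5.59e-33). In every mOPC library the antisense window of this gene thus held more tags than its sense window.

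Nelfa, a subunit of the negative elongation factor that holds paused polymerase II, showed the same pattern at a lower ratio. It had 6.47, 8.53 and 7.19 antisense tags per 100 sense tags in mESCs and 36.2, 28.6 and 29.6 in mOPCs (log2 change 2.10 ± 0.17, adjusted p = 7.3e-32). Qk, an RNA-binding protein needed for myelination, had 2.71, 2.63 and 2.67 per 100 in mESCs and 16.5, 14.2 and 16.1 in mOPCs (2.54 ± 0.17, adjusted p = 9.98e-48). In both genes the lowest mOPC library was over 3 times the highest mESC library. Further inside the gene, outside the sense window, lay 69.3% of the gene-strand tags of Qk.

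Gtf3c2, a subunit of the polymerase III factor TFIIIC, stood apart from these. Its antisense tags rose with its sense tags (log2 changes 2.58 ± 0.10 and 2.96 ± 0.09), and the ratio went from 14, 16.8 and 16.5 to 11.5, 12.7 and 11.8 per 100 (-0.39 ± 0.17, adjusted p = 0.0348). The predicted gene Gm29609 starts in the same window and its values rest largely on the same tags. Selenoi, Nelfa, Gtf3c2 and Kcnh2 all lie on chromosome 5 between 5 and 35 Mb. The 84 members in that stretch, which was chosen after their values were seen, had a pooled ratio of 5.26 ± 0.207 per 100 in mESCs and 9.83 ± 0.156 in mOPCs, and the other 6792 members 2.02 ± 0.0671 and 3.78 ± 0.110.

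Triml2 was the mESC counterpart. It had 245.0, 229.3 and 253.4 antisense CPM in mESCs, beside 258.4, 254.1 and 266.8 sense CPM, so that the strands held almost equal numbers of tags (94.8, 90.2 and 95 per 100). In mOPCs no tag was found on either strand of the windows. Antisense tags were at least 7444-fold lower in mOPCs, against a floor of 3 tags over the 3 libraries.

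The 6 highest ratios, among members with at least 100 antisense tags, were those of Kcnh2, Ggnbp2, Tdg, Megf9, Zfp703 and Carm1, at 361.7, 330.8, 302.4, 281.3, 241.1 and 228.0 per 100. All 6 had higher ratios in every mOPC library than in any mESC library. Kcnh2, a potassium channel, had 39.5, 34.9 and 58.3 per 100 in mESCs and 421.8, 465.0 and 455.1 in mOPCs. Tdg, a DNA glycosylase that removes thymine and oxidized methylcytosine, had 58.6, 45.0 and 45.5 per 100 in mESCs and 1037.0, 628.3 and 877.9 in mOPCs. Its sense tags fell while its antisense tags rose (log2 changes -1.47 ± 0.16 and 2.54 ± 0.13). Gene-strand tags outside the sense window were frequent at several of these genes, and their part in the ratios was not tested. The share of gene-strand tags further inside the gene was 62.3% for Kcnh2, 73.3% for Ggnbp2, 60.7% for Megf9, 47.7% for Carm1 and 38.0% for Tdg, and 6.72% for Zfp703.

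The largest antisense gains in mOPCs were at Usp18, Olig2, Pde10a, Bzw1 and Gm1673. Olig2, the transcription factor that specifies the oligodendrocyte lineage, had no antisense tag in mESCs and 13.2, 12.1 and 10.2 CPM in mOPCs, at least 280.1-fold more (floor of 3 tags over the group). Its sense tags came to 3 in mESCs and 39170 in mOPCs. Usp18, which removes the ubiquitin-like protein ISG15, had 0 against 23.6, 21.6 and 22.2 CPM (at least 543.8-fold). Pde10a, a cyclic nucleotide phosphodiesterase, had 0 against 9.99, 10.5 and 10.9 CPM (at least 257.3-fold). At these 3 promoters both strands were all but silent in mESCs. Gm1673, a predicted gene that is also on chromosome 5, had 0.0264, 0.120 and 0.0543 CPM in mESCs and 76.4, 79.1 and 79.1 in mOPCs.

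The largest antisense losses were at Triml2, Zfp42, Bmp4, Cep126 and F2rl1. Zfp42 encodes Rex1, a marker of naive pluripotency, and had 14.7, 11.9 and 13.0 antisense CPM in mESCs. Bmp4, a ligand of the BMP pathway, had 12.4, 11.9 and 15.3. All 4 beside Triml2 were at 0 on both strands in every mOPC library. Antisense tags were at least 416.3-fold lower at Zfp42, 397.9-fold at Bmp4, 213.2-fold at Cep126 and 175.1-fold at F2rl1 (floor of 3 tags over the group).

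Promoters also differed in ratio while the gene itself stayed active in both cell types. Bzw1, a regulator of translation initiation, was the extreme case. Its sense tags were 104.7, 110.3 and 102.6 CPM in mESCs and 65.8, 62.0 and 52.5 in mOPCs, and its antisense tags 0.0264, 0 and 0 in mESCs and 28.5, 26.1 and 23.1 in mOPCs. A single antisense tag was found in mESCs against 2325 in mOPCs, a ratio of ratios of 3324 with a 95% counting interval of 596.1 to 131362 (exact Clopper-Pearson). The start printed above lies 98 bp upstream. With windows set from the position with most sense tags, 237 bp inside the gene, the log2 change was 2.84.

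The other 4 with the largest rise of the ratio were Sh3glb1, Uevld, Gm21987 and Cox17. Uevld had 0.256, 0 and 0.641 antisense tags per 100 sense tags in mESCs and 51.8, 64.1 and 68.7 in mOPCs. Cox17, a copper chaperone for cytochrome c oxidase, shares its start region and tags with Gm21987. It had 1 antisense tag in mESCs and 59 in mOPCs, beside 23808 and 6577 sense tags. Sh3glb1, a membrane-curvature protein, had 0 and 103. These promoters had sense tags in every library.

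The largest falls of the ratio were at Rapgefl1, Znrf3, Zfp516, Neurl1a and Jag1. Znrf3, a ubiquitin ligase that restrains Wnt signalling, had sense tags of 77.8, 69.6 and 79.0 CPM in mESCs and 73.9, 74.4 and 77.2 in mOPCs. Its antisense tags were 3.91, 3.96 and 5.37 CPM in mESCs and 0, 0 and 0.0244 in mOPCs, 313 tags against 1 (ratio of ratios 389.7, counting interval 69.4 to 15440). The sense libraries overlapped and the antisense libraries did not. Jag1, a Notch ligand, had 27.5, 31.8 and 33.3 per 100 in mESCs and 0, 0.355 and 0.208 in mOPCs. Neurl1a had 56.2, 73.5 and 97.0 per 100 and 0.203, 0.70 and 0.399. Rapgefl1 went from 115.5, 103.3 and 84.1 to 0, 0.0887 and 0.109 per 100, with sense tags that rose (log2 change 4.30 ± 0.13) and antisense tags that fell from 150 to 3.

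**Figure D5:**
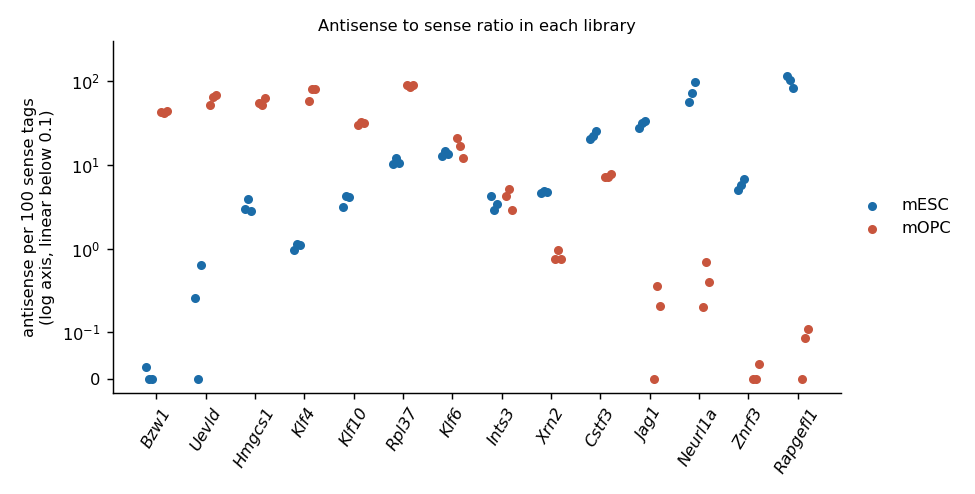
Antisense tags per 100 sense tags in each library (log axis, linear below 0.1) for 14 of the genes described. Points are single libraries. mESC and mOPC libraries do not overlap except at Klf6 and Ints3, and lie in opposite orders at the left and right ends.

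Gene lists chosen with earlier results of these data known are described by their counts. Marker genes of the labelled cells were checked on the sense strand of all protein-coding windows, clear or not. Of 31 pluripotency and stem cell genes, all 23 tested were lower in mOPCs. Of 31 oligodendrocyte lineage genes, 24 of 26 tested were higher and 2 were lower. The lower ones were Pdgfra, which is on the paper's list of mOPC markers, and Mbp. At their annotated 5′ ends they had 3.98 and 1.27 CPM in mESCs and 0 in mOPCs. The 6 microglia markers summed to 0 CPM in mESCs and 0.872 in mOPCs, the 6 primitive endoderm markers to 13.2 and 0, and the 8 fibroblast and feeder markers to 20.4 and 82.2. The 9 neuron markers summed to 354.1 and 593.9 CPM and the 8 astrocyte markers to 119.1 and 319.2. Single genes made up much of these sums, and directions were mixed. Of neuron markers, 4 were higher and 4 lower in mOPCs, with Stmn2 at 281.9 and 0 CPM and Gap43 at 13.9 and 376.9. Of astrocyte markers, 5 were higher and 2 lower, with Gja1 at 75.5 and 0.0152 and S100b at 0.0176 and 205.8. Of fibroblast markers, 3 were higher and 1 lower, with Postn at 0.0181 and 74.2. The part of these markers in the antisense values was not tested.

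The pluripotency list had 18 members, with a median of 0.606 antisense tags per 100 sense tags over the pooled libraries, below the 1.58 of all members. Sense tags fell in all 18, against 50.6% of all sense windows. Antisense tags fell in 9 of 10 tested, against 30.6% of all antisense windows, and rose in 1, which was Klf4. Only 4 had enough sense tags in both cell types for the ratio test, and all 4 rose, also under the antisense scaling, against 37.2% of all promoters tested. Klf4, a factor of the pluripotency network, had sense tags of 383.9, 333.0 and 365.4 CPM in mESCs and 23.1, 18 and 17.0 in mOPCs, while its antisense tags went from 3.70, 3.78 and 4.07 to 13.6, 14.5 and 13.8 CPM. The strands moved in opposite directions (log2 changes -4.31 ± 0.10 and 1.78 ± 0.14), and the ratio went from 1.07 ± 0.0944 to 73.5 ± 12.8 per 100 (SD, n = 3 each). Sox2 had 1.15, 0.926 and 0.887 per 100 in mESCs and 6.46, 9.27 and 6.18 in mOPCs, with both strands lower in mOPCs. Klf5 had 2.83, 2.26 and 2.36 per 100 and 19.4, 4.17 and 13.0, with 37 antisense tags behind the mOPC values.

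Oligodendrocyte lineage genes showed no single direction of the ratio. Of 13 members, all had higher sense tags in mOPCs, against 40.3% of all sense windows, and antisense tags rose in all 8 tested, against 46.5% of all antisense windows. Over all promoters tested, 37.2% of ratios rose and 25.3% fell. In the list the ratio rose at 3 and fell at 4 of 7 tested, or rose at 2 and fell at 4 under the antisense scaling. Bcan, which encodes the proteoglycan brevican, had 0.0264, 0.120 and 0.0543 antisense CPM in mESCs and 12.6, 8.77 and 9.38 in mOPCs, beside 619.2, 557.9 and 558.8 sense CPM in mOPCs. Erbb3, a neuregulin receptor, had 6.69, 7.48 and 4.79 per 100 in mESCs and 2.64, 2.60 and 2.39 in mOPCs, as its sense tags rose more than its antisense tags (log2 changes 3.93 ± 0.11 and 2.59 ± 0.26). The rise of Qk and the fall of Erbb3 were both without overlap.

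Ribosomal protein genes encode the proteins of the cytoplasmic ribosome. Of 77 genes, 51 were members, and sense tags fell in all 51 in mOPCs, against 50.6% of all sense windows. Antisense tags rose in 15 and fell in 16 of 39 tested, or rose in 11 and fell in 21 when scaled by the antisense windows alone. The ratio was higher in 41 and lower in 1 of 50 tested, against 37.2% and 25.3% of all promoters, and still higher in 39 and lower in 2 with antisense columns scaled on their own. The median member of the list had 1.32 antisense tags per 100 sense tags in mESCs and 9.48 in mOPCs, against 1.61 and 1.78 over all members with 100 sense tags in each cell type. Rpl37 had 10.3, 12.2 and 10.6 per 100 in mESCs and 89.6, 85.3 and 91.4 in mOPCs. As background, many ribosomal protein genes have near-identical processed copies, so that their levels from uniquely mapped tags are uncertain.

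The cholesterol synthesis list had 9 members, all with at least 20 antisense tags. Antisense tags rose in 8 of 9, against 46.5% of all antisense windows, while sense tags rose in 5 and fell in 4. The ratio rose in 7 of 9 and fell in none, against 37.2% and 25.3% of all promoters, or rose in 5 and fell in none under the antisense scaling. Hmgcs1, the cytosolic HMG-CoA synthase, had 50.3, 45.5 and 47.9 sense CPM in mESCs and 37.2, 38.4 and 38.1 in mOPCs, and its antisense tags, 437 bp upstream, went from 1.5, 1.8 and 1.36 to 20.8, 20.2 and 24.1 CPM. Its ratio was 3.26 ± 0.610 per 100 in mESCs and 57.2 ± 5.42 in mOPCs (log2 change 4.16 ± 0.21, adjusted p = 1.09e-83). Sc5d, a desaturase of the last steps, had 8.38 ± 1.33 and 8.04 ± 1.56 per 100 (SD, n = 3 each), with an adjusted p of 0.896.

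Immediate early genes respond within minutes to growth signals. Their median antisense distance was 233 bp over 14 members with at least 20 antisense tags, against 125 bp for all members. The pluripotency and cholesterol lists came next, at 208 and 197 bp, and these differences were not tested. The 15 immediate early members had a median ratio of 2.59 per 100. The ratio rose in 4 and fell in 1 of 12 tested, a share near the 37.2% and under the 25.3% of all promoters. Under the antisense scaling it rose in 3 and fell in 2. Klf10 had 3.11, 4.21 and 4.11 per 100 in mESCs and 29.7, 33.1 and 31.4 in mOPCs, from a start 498 bp upstream. Klf6 had 12.9, 14.9 and 13.6 per 100 and 21.1, 16.7 and 12, with overlapping libraries and an adjusted p of 0.248. Btg2, an antiproliferative gene, had 7.29, 5.37 and 6.98 per 100 and 13.9, 14.1 and 10.5. Mcl1, an antiapoptotic BCL2 relative, rose from 2.64 ± 0.112 to 3.72 ± 0.237 per 100.

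Factors known to end or degrade antisense RNA have antisense starts of their own. The exosome and its cofactors gave 13 members with a median ratio of 2.43 per 100, and the ratio rose in 7 and fell in 2 of 13 tested (37.2% and 25.3% of all promoters), or rose in 5 and fell in 2 under the antisense scaling. Zc3h3, of the polyadenylated RNA exosome pathway, had 46.1, 40.2 and 60.9 per 100 in mESCs and 39.6, 60.3 and 48.1 in mOPCs, with fully overlapping libraries. Zc3h18, which links the cap-binding complex to the exosome, had 9.84, 10.9 and 9.78 per 100 and 16.4, 18.5 and 21.4. Xrn2, the nuclear 5′ to 3′ exonuclease, went the other way, with 4.56, 4.86 and 4.73 per 100 in mESCs and 0.756, 0.970 and 0.759 in mOPCs. Its sense tags differed little (log2 change 0.07 ± 0.08) while its antisense tags fell (-2.42 ± 0.15, adjusted p = 2.53e-26).

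The remaining lists were small. Of 9 cleavage and polyadenylation factors, the ratio rose in 3 and fell in 3 of 8 tested, beside 37.2% and 25.3% of all promoters. Cstf3, a subunit of the cleavage stimulation factor, fell from 20.2, 22.2 and 25.6 per 100 to 7.22, 7.16 and 7.75, and Clp1, an RNA kinase of the cleavage complex, rose from 7.81, 6.67 and 9.02 to 40.0, 21.5 and 24.8. Of 4 members among the U1 snRNP proteins, 3 were tested and the ratio rose in 1 and fell in 1. Snrnp70, the U1-70K protein, had 0.346, 0.329 and 0.349 per 100 in mESCs and 0.134, 0.170 and 0.175 in mOPCs. Of the 7 Integrator members, 6 were tested and 0 were called in either direction with edgeR or DESeq2 (0 also at an unadjusted p under 0.05 with edgeR), but 1 was called lower under the antisense scaling. Ints3 had 4.23, 2.88 and 3.45 per 100 in mESCs and 4.32, 5.21 and 2.93 in mOPCs (adjusted p = 0.581).

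The markers of other cell types gave 4 neuron, 4 astrocyte, 3 fibroblast and 1 primitive endoderm member and 0 microglia members. Gja1, a gap junction protein listed with astrocyte markers, had 5.28, 5.61 and 4.53 per 100 in mESCs. In mOPCs it had 1 sense tag and no antisense tag. Syt1, a synaptic vesicle protein listed with neuron markers, had 14.8, 6.45 and 13.1 per 100 in mESCs and 0.987, 0.827 and 0.795 in mOPCs, as its sense tags rose (log2 change 4.61 ± 0.12). The 280 members on chromosome X had a median ratio of 0.788 per 100, the lowest among the autosomes and X, and chromosome 15 the highest at 2.31 per 100.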

How the data were processed

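Nuclear CAGE tags were analysed in 3 mESC (R08) and 3 mOPC (Oli-neu) libraries. The deposited files hold counts, made by the authors: raw tag counts per position and strand (mm10), not normalized. The study's methods name bowtie for unique alignment of CAGE tags, whereas the submitters' processing notes list BWA 0.5.9 and CASAVA 1.8, and which made these files could not be told. Libraries held 16657021 to 40928704 tags, and rare starts are limited by counting error.

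Gene 5′ ends came from GENCODE vM21. Tags were summed in the windows and CPM were computed from library totals. Cell types were compared with the quasi-likelihood test of edgeR 4.0.16 (TMM over all windows, low counts filtered, R 4.3.3), fitted on all sense and antisense windows, with Benjamini-Hochberg adjustment at 0.05. The ratio was tested as the interaction of strand and cell type where each cell type had at least 100 sense tags and at least 10 antisense tags were present. Library values were compared by an exact permutation test (scipy 1.17.1). Each fit was tested on simulated data. DESeq2 1.42.0, other scalings, filters and windows, and leaving out each library were alternatives. Sequence letters came from RefSeq (GRCm38.p6), and the initiator offset was read after seeing the data.

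Members and gene lists were chosen with earlier results of these data known. Named genes were the 6 members with most antisense tags, the 6 highest ratios among members with at least 100 antisense tags, the 5 largest called changes in each direction of antisense tags (mean of 1 CPM or more where higher) and of the ratio (at least 50 antisense tags there), with libraries that did not overlap, and up to 4 members with most antisense tags in each gene list. Sequences were to be shown for the first 2 of these sets, and those of the antisense changes were added after their values were seen. Values of a few genes that this rule names are not reported here.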

Additional observations from a re-analysis of the deposited data

Results flagged for a closer look

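The change of antisense tags between cell types differed from that of the sense tags of the same promoter, by the interaction of strand and cell type, at 1920 members with a higher ratio and 1299 with a lower ratio in mOPCs (edgeR's quasi-likelihood test). These were 37.3% and 25.2% of the 5145 members tested, close to the 37.2% and 25.3% of all promoters tested. With antisense columns scaled on their own, which takes out a shift shared by most promoters, the counts were 1583 higher and 1649 lower. Opposite-strand tags 1 to 500 bp inside the gene, which the antisense windows do not use, came to 0.394 per 100 sense tags in mESCs and 1.07 per 100 in mOPCs.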

How the results depend on the processing

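No alternative reversed the pooled ratio, the median ratio or the distance, or moved a count of calls by more than 1.5 times. The balance of ratio calls did turn over when antisense columns were scaled on their own, from 1920 higher and 1299 lower to 1583 and 1649. That scaling takes out a shift shared by most promoters. The pooled fold ranged from 1.88 to 2.13, the median fold from 1.13 to 1.32 and the difference in tag-weighted distance from -20.3 to -12.3 bp. Antisense calls ranged from 1511 to 2454 higher and 919 to 1727 lower, and ratio calls from 1560 to 2067 higher and 914 to 1649 lower. Leaving out each library gave 1748 to 1921 antisense calls higher and 1100 to 1434 lower, and 1727 to 1885 ratio calls higher and 1116 to 1274 lower. Samples that share a replicate number did not deviate together (r = 0.0343, -0.00889 and -0.00559 over 3239 members), so the numbers do not pair the libraries. With the replicate block, antisense calls were 1893 higher and 1146 lower and ratio calls 1885 and 1237. DESeq2 gave 1681 and 1183, and 1593 and 1037. An antisense scaling, which sets the typical antisense change near 0, moved its median from 0.39 to 0.00 on the log2 scale. Low antisense counts limit the 2797 members that were not tested.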
